A study of Mus musculus with 16 samples.

Results

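Creatine metabolism in mouse fat was followed here through 7 genes: Gatm and Gamt, which make creatine; Slc6a8, which imports it; the creatine kinases Ckb, Ckmt1 and Ckmt2; and the phosphatase gene Alpl. The genes were chosen by name, and every probe whose transcript accession RefSeq assigns to one of them was taken. This gave 8 probes, 2 of them for Ckb, among 41174 probes and 19096 gene symbols on the array. All 7 genes passed the filter for signal above background, as did 16677 named genes in all. On the RefSeq annotation of GRCm38.p6, Gatm lies on chromosome 2 (122594473 to 122611277), Gamt on chromosome 10 (80258151 to 80261025) and Slc6a8 on chromosome X (73673133 to 73682502). Ckb lies on chromosome 12 (111669355 to 111672338), Ckmt1 on chromosome 2 (121357773 to 121363737), Ckmt2 on chromosome 13 (91853386 to 91876923) and Alpl on chromosome 4 (137741731 to 137796384).

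Creatine kinases move a phosphate between ATP and creatine, so that phosphocreatine can carry and buffer energy between the mitochondria and the places where ATP is used. In thermogenic fat of mice, a cycle of creatine phosphorylation and phosphocreatine hydrolysis has been described as a route of heat production that runs beside uncoupling protein 1, with the products of Ckb and Alpl assigned to its steps. Skeletal muscle is rich in its own pair of creatine kinases, the cytosolic form encoded by Ckm and the sarcomeric mitochondrial form encoded by Ckmt2.

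The samples were brown adipose tissue (BAT) of knockout mice, BAT of control mice, white adipose tissue (WAT) of knockout mice and WAT of control mice, with 4 single-colour whole-genome arrays in each group. All mice were female. The knockout, named AdipoKO in the labels, removed the glucocorticoid receptor (GR, encoded by Nr3c1) from adipose tissue, and the controls are called wild type in the design text, which counts the 4 samples of a group as biological replicates. The promoter that drove the deletion, the deleted exons, the strain, the age and the fat pad are not given in the sources used here, and no treatment is listed.

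The arrays of WAT knockouts 1 and 2 were near-identical. Over 7026 bright probes their log2 values had an SD of 0.0855 about each other, below the 0.0878 that repeated spots alone would give, and 0 probes were more than 2-fold apart. Their mean entered as a single sample named WAT knockout 1-2, so that group has n = 3 and there are 15 samples. Between 66.7% and 83.6% of the probes on an array were well above background, and precision is limited by the number of arrays. The brightest of 4 Nr3c1 probes was lower in knockouts without overlap in either depot, which held in either direction for 18% of all genes and probes in BAT and 7.7% in WAT, with a difference of -1.03 in BAT (adjusted p = 0.0814, limma) and -0.66 in WAT (adjusted p = 0.210, limma). Neither passed the threshold of 0.05. The other 3 probes differed by -1.89, -1.08 and -0.40 in BAT, the first of them well above background on 1 of 4 BAT knockout arrays and the last with overlap, and by 0.24, -0.38 and -0.19 in WAT, all with overlap, and whether these probes lie in the deleted part is not given. Ucp1, which encodes uncoupling protein 1, lay between 8.24 and 8.99 in BAT knockouts, 8.21 and 8.45 in BAT controls, -5.06 and -1.10 in WAT knockouts and -5.23 and -3.36 in WAT controls. Of 20 measured genes of brown adipocyte thermogenesis, 18 passed the test as higher in BAT among knockouts, against 16.7% of all genes and probes. Among controls 19 did, against 19.1% of all.

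Levels are log2 ratios of a probe's processed signal to the 75th percentile of all probes on its array. The level of one probe cannot be set against that of another, so levels are compared between samples only. Differences are given in log2 units with their SE from limma, knockout minus control or BAT minus WAT, and adjusted p-values are by Benjamini-Hochberg over all 25107 genes and unnamed probes. The exact permutation tests of single probes could not go below p = 0.0286 with these group sizes.

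**Figure D1:**
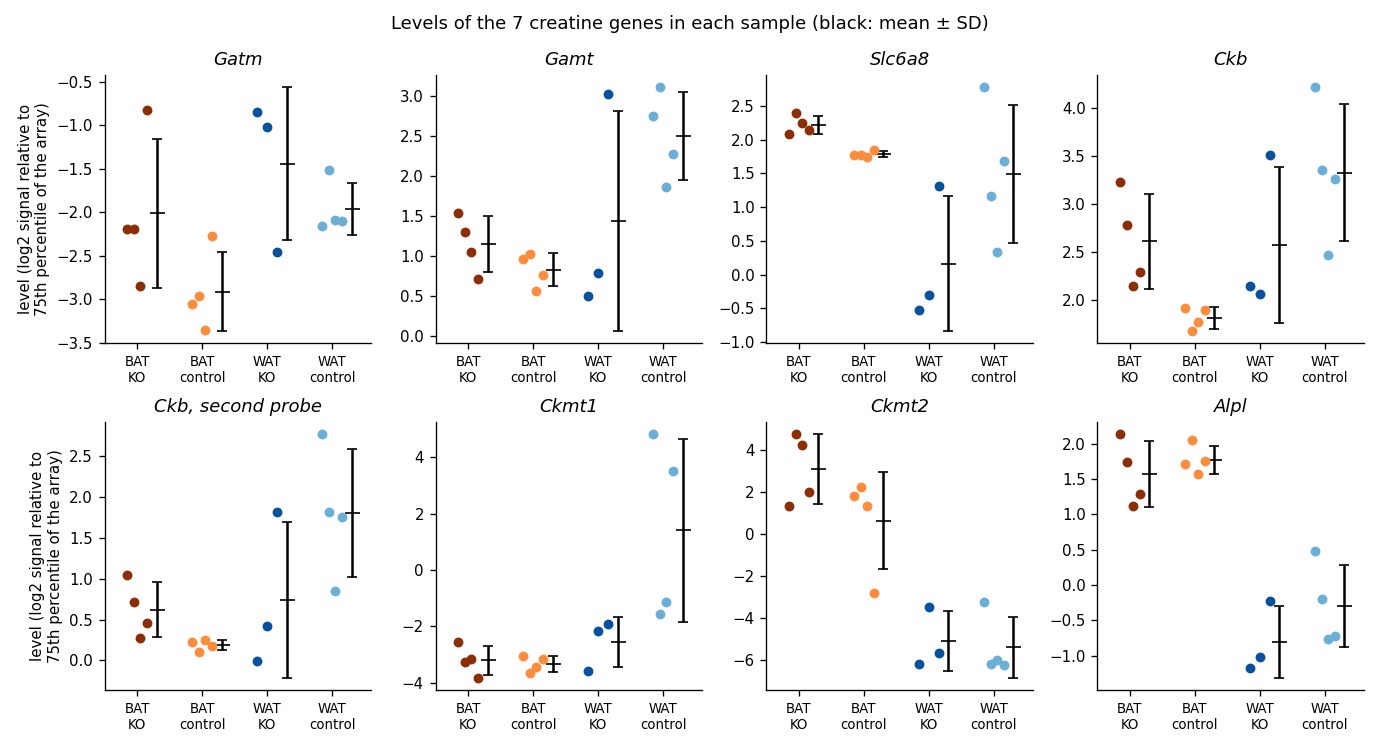
Level of each probe of the 7 genes (log2 signal relative to the 75th percentile of the array, vertical axis) in every sample, by group (horizontal axis), with group mean and SD in black. Alpl and Ckmt2 are high in both BAT groups, and WAT knockout 4 stands above the other WAT knockouts for Gamt, Slc6a8 and Ckb.

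Neither gene of creatine synthesis passed the test between genotypes. Gatm encodes arginine:glycine amidinotransferase, which forms guanidinoacetate. Its level was -2.19, -2.20, -2.85 and -0.82 in BAT knockouts 1 to 4, against -3.06, -2.96, -3.35 and -2.28 in BAT controls 1 to 4. Knockouts 1 and 2 and, most of all, knockout 4 lay above all 4 controls, while knockout 3 lay among them. The difference was 0.90 ± 0.43 (adjusted p = 0.393, limma; 95% interval -0.02 to 1.82). In WAT, Gatm was at -0.85, -1.02 and -2.46 in knockouts 1-2, 3 and 4, and at -2.16, -1.51, -2.08 and -2.10 in controls 1 to 4. WAT knockout 4 was the lowest of the 7 WAT samples and the other knockouts the highest, and the difference was 0.52 ± 0.46 (adjusted p = 0.493, limma).

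Gamt encodes guanidinoacetate methyltransferase, which turns guanidinoacetate into creatine. Its probe was spotted 10 times on each array, and the SD among those spots was between 0.0349 and 0.0837 log2 units. Gamt was at 1.54, 1.30, 1.04 and 0.71 in BAT knockouts, against 0.96, 1.03, 0.57 and 0.76 in BAT controls. These groups overlapped, with a difference of 0.32 ± 0.45 (adjusted p = 0.843, limma; 95% interval -0.65 to 1.29). In WAT, Gamt stood at 0.50, 0.79 and 3.02 in knockouts and at 2.75, 3.11, 1.87 and 2.27 in controls. WAT knockouts 1-2 and 3 were below every control, and WAT knockout 4 was above 3 of the 4. The difference over all samples was -1.06 ± 0.49 (adjusted p = 0.276, limma).

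Slc6a8 encodes the creatine transporter of the plasma membrane. It was at 2.09, 2.40, 2.25 and 2.14 in BAT knockouts, against 1.78, 1.77, 1.75 and 1.84 in BAT controls. The BAT groups did not overlap (exact permutation p = 0.0286, two-sided), which also held for 18% of all genes and probes, and for 9.34% in this direction. The spread within each BAT group was small, with an SD of 0.14 in knockouts and 0.04 in controls. The difference of 0.43 ± 0.45 did not pass the test that shares its spread with the WAT groups (adjusted p = 0.762, limma; 95% interval -0.54 to 1.41). It passed in 0 of 27 alternatives, among them a fit of the BAT groups alone, with a lowest adjusted p of 0.118 (limma). In WAT, Slc6a8 was at -0.52, -0.31 and 1.31 in knockouts and at 2.78, 1.16, 0.33 and 1.68 in controls. Again WAT knockouts 1-2 and 3 were below every control and WAT knockout 4 lay among the controls. The WAT difference was -1.33 ± 0.49 (adjusted p = 0.243, limma).

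The promoters of the kinase genes are given because Ckmt2 and Ckm followed each other across the samples, while Ckb and Ckmt1 each followed another course. The windows run from 250 bases before to 50 bases after the annotated start, 5′ to 3′ on the gene's strand, from RefSeq on GRCm38.p6. They are chr13:91876836-91877135 (minus strand) for Ckmt2, chr7:19410844-19411143 (plus) for Ckm, chr12:111672289-111672588 (minus) for Ckb and chr2:121357526-121357825 (plus) for Ckmt1. Capitals mark the E-box CAGCTG, a sequence that myogenic factors can bind, and the TATA box TATAAA.
Ckmt2: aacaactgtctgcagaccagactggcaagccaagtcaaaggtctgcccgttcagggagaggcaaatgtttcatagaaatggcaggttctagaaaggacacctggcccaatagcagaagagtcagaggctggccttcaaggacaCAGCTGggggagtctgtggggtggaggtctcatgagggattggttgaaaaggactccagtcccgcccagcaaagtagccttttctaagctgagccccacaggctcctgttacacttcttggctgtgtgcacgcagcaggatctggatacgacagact
Ckm: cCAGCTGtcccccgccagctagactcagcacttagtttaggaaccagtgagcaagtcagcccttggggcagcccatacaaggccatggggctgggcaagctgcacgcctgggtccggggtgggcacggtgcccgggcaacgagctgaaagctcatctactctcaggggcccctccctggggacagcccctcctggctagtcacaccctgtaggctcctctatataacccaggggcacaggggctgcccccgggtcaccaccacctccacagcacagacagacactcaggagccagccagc
Ckb: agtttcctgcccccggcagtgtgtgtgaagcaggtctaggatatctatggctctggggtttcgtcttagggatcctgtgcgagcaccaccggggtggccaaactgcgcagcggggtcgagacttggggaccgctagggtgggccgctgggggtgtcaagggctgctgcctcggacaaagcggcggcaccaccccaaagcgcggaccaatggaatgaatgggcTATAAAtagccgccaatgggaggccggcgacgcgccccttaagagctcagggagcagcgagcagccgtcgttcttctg
Ckmt1: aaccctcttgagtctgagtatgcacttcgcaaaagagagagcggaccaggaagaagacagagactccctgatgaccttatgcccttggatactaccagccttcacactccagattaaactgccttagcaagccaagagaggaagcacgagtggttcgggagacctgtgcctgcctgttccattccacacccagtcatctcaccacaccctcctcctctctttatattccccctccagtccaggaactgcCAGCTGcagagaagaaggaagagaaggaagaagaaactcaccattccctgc
The E-box lay at -107 from the start of Ckmt2, at -249 from that of Ckm and at -1 from the start of Ckmt1 shown. It was in 3 of the 8 windows of 6 of the 7 genes (Ckmt2, Ckmt1 and, at -176, Alpl), and the window of a second Ckmt1 start had none. It occurs in 16.3% of all 32851 promoter windows of this length, searched on both strands. The TATA box of Ckb was at -28, and 8.32% of windows hold these letters on the gene's strand. The core of the glucocorticoid receptor motif, TGTTCT on either strand, was in 1 of the 8 windows, another Alpl window, at -170, against 19.0% of all windows. The nuclear receptor core AGGTCA, not in capitals, was in 3 of the 8 windows, those of Gatm, Ckmt1 and Alpl, and in 16.3% of all. A match is a description of letters and not a binding site.

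Ckmt2 had the largest BAT knockout difference of the 7 genes, and it moved with skeletal muscle transcripts from sample to sample. Its level was 1.34, 4.76, 4.24 and 1.98 in BAT knockouts 1 to 4, against 1.78, 2.23, 1.31 and -2.82 in BAT controls 1 to 4. Knockouts 2 and 3 were high and control 4 was low, while the other BAT samples of both genotypes lay together between 1.31 and 2.23. The difference of 2.45 ± 1.14 did not pass the threshold (adjusted p = 0.380, limma; exact permutation p = 0.171, two-sided). It was 1.31 without BAT control 4.

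The same samples were high and low in 30 skeletal muscle markers, none of them a creatine kinase. The median deviation of these markers from their mean over the samples was 1.31, 4.57, 4.34 and 1.79 in BAT knockouts, against 1.83, 2.28, 1.64 and -1.25 in BAT controls. All 30 were measured, all 30 had a higher mean in BAT knockouts and 0 passed the test there. Their log2 summed signal ran between 8.29 and 10.76 in BAT knockouts and between 5.63 and 8.75 in BAT controls. Acta1, the skeletal muscle actin, was at 3.69, 6.52, 6.74 and 4.35 in BAT knockouts and at 4.47, 5.07, 4.17 and 0.22 in BAT controls. In the WAT samples the marker level was between -2.40 and -1.85 in knockouts and between -2.72 and -2.002 in controls.

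Ckm, the muscle cytosolic kinase, stood at 1.44, 4.15, 4.04 and 1.29 in BAT knockouts and at 1.26, 1.83, 1.22 and -2.57 in BAT controls. The same samples were high and low as for Ckmt2, and its difference was 2.30 ± 1.04 (adjusted p = 0.364, limma). Across the 8 BAT samples, Ckmt2 correlated with the muscle marker level at Pearson r = 0.986 (exact permutation p = 9.92e-05, adjusted over the 7 genes 0.000694). Spearman's rho was 0.952 (exact permutation p = 0.00114, adjusted 0.00799). Without the samples farthest from the median, BAT control 4 and BAT knockout 2, r was 0.988, and after subtraction of each genotype's mean it was 0.98. With the marker level as a covariate the BAT knockout difference of Ckmt2 was 0.01 (adjusted p = 0.997, limma). With BAT samples only and the same covariate it was 0.20 (adjusted p = 0.776, limma). Its adjusted p ranged between 0.251 and 0.99996 over all alternatives.

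For the other 6 genes, r with the muscle marker level in BAT lay between -0.334 (Alpl) and 0.651 (Slc6a8), with adjusted exact permutation p-values between 0.293 and 0.813. Fewer cells of a type and less RNA per cell cannot be told apart in bulk tissue, and whether the muscle transcripts came with the dissected fat was not tested.

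**Figure D2:**
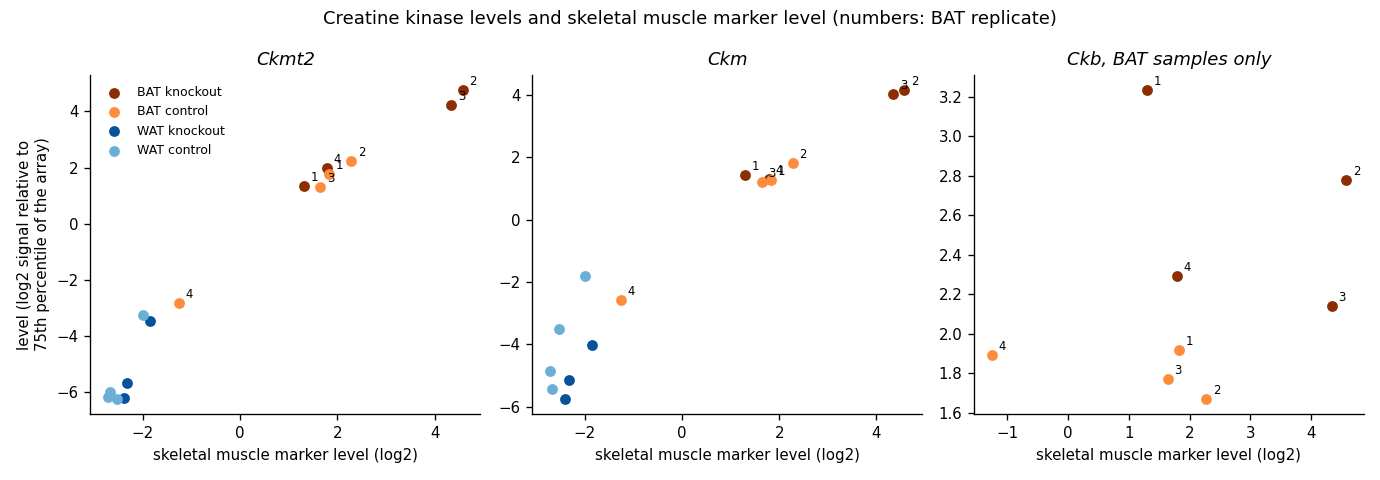
Level of Ckmt2, Ckm and Ckb (log2 signal relative to the 75th percentile, vertical axes) against the level of 30 skeletal muscle markers (median log2 deviation, horizontal axes), 1 point per sample, with the replicate number beside each BAT point. Ckmt2 and Ckm climb with the markers, with BAT control 4 near the WAT samples and BAT knockouts 2 and 3 at the top, while Ckb does not follow them.

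Ckb encodes the cytosolic brain-type creatine kinase. Its brighter probe was at 3.23, 2.78, 2.14 and 2.29 in BAT knockouts, against 1.92, 1.67, 1.77 and 1.89 in BAT controls. All 4 knockouts were above all 4 controls (exact permutation p = 0.0286, two-sided), as in 9.34% of all genes and probes, and the difference was 0.80 ± 0.38 (adjusted p = 0.396, limma; 95% interval -0.03 to 1.62). Its second probe was at 1.05, 0.71, 0.27 and 0.45 in BAT knockouts and at 0.22, 0.10, 0.25 and 0.18 in BAT controls. That probe showed no overlap either, with a smaller difference of 0.43 (exact permutation p = 0.0286, two-sided).

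Among BAT samples both Ckb probes were highest in knockouts 1 and 2. The 75th percentile signal of these arrays, 298 and 320.2, was the lowest of the BAT arrays. The percentile was 497 and 486 in BAT knockouts 3 and 4 and between 501 and 561 in BAT controls. Without BAT knockouts 1 and 2 the Ckb difference was 0.40 (adjusted p = 0.99996, limma). Endothelial markers were also highest in these samples, at 1.18, 0.86, 0.15 and 0.06 in BAT knockouts and between -0.14 and 0.15 in BAT controls. All 12 endothelial markers had a higher mean in BAT knockouts, 0 passed the test, and their part in the Ckb values was not tested. The muscle covariate left the Ckb difference at 0.90.

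In WAT, the brighter Ckb probe was at 2.14, 2.06 and 3.51 in knockouts and at 4.22, 3.35, 2.47 and 3.26 in controls. WAT knockouts 1-2 and 3 were again the lowest and WAT knockout 4 lay above 3 of the controls. The difference was -0.76 ± 0.41 (adjusted p = 0.318, limma). The second probe was at -0.01, 0.42 and 1.82 in WAT knockouts and at 2.77, 1.82, 0.86 and 1.76 in WAT controls, a difference of -1.06 (exact permutation p = 0.171, two-sided).

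Ckmt1 encodes the ubiquitous mitochondrial creatine kinase, which is abundant in many epithelia and in brain. It was low in all BAT samples, at -2.57, -3.27, -3.16 and -3.83 in knockouts and at -3.04, -3.66, -3.45 and -3.16 in controls. The BAT difference was 0.12 ± 1.12 (adjusted p = 0.983, limma; 95% interval -2.29 to 2.53). In WAT it was at -3.57, -2.17 and -1.90 in knockouts, against 4.82, -1.57, -1.14 and 3.49 in controls. All 3 knockouts were below all 4 controls, which held for 7.7% of all genes and probes and for 1.23% in this direction, and controls 1 and 4 lay far above the rest. The difference was -3.95 ± 1.21 (adjusted p = 0.217, limma; exact permutation p = 0.143, two-sided).

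Intestinal epithelial markers set the same WAT samples apart. Their level was -1.31, -0.46 and -0.66 in WAT knockouts and 6.91, -1.58, 1.10 and 5.45 in WAT controls. Of 24 measured markers, 23 had a lower mean in WAT knockouts and 0 passed the test. Their log2 summed signal was between 2.59 and 3.80 in WAT knockouts and between 4.27 and 10.09 in WAT controls. Vil1, which encodes the microvillus protein villin, was at -3.26, -2.57 and -2.06 in WAT knockouts and at 5.61, -3.23, -1.41 and 4.41 in WAT controls. Cdh17, an intestinal cadherin, was well above background on 0 BAT arrays. Without WAT controls 1 and 4 the Ckmt1 difference was -1.20 (adjusted p = 0.456, limma), within a range of adjusted p from 0.0330 to 0.752 over all alternatives. The part of intestinal transcripts in the Ckmt1 values beyond this was not tested.

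Alpl encodes the tissue-nonspecific alkaline phosphatase, which in mouse thermogenic fat has been described as a phosphocreatine phosphatase. It was at 2.14, 1.74, 1.12 and 1.28 in BAT knockouts and at 1.71, 2.05, 1.58 and 1.75 in BAT controls. The groups overlapped and the difference was -0.20 ± 0.31 (adjusted p = 0.861, limma; 95% interval -0.87 to 0.47). In WAT it was at -1.18, -1.01 and -0.23 in knockouts and at 0.48, -0.20, -0.76 and -0.72 in controls, a difference of -0.51 ± 0.34 (adjusted p = 0.384, limma; 95% interval -1.23 to 0.22).

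Between genotypes, then, 0 of the 7 genes passed the test in BAT, where 0.0159% of all genes and probes did, and 0 of 7 in WAT, where 0.0597% did. At an unadjusted p under 0.05 there was 1 of 7 in BAT (Ckmt2), against 13.1% of all, and 3 of 7 in WAT (Gamt, Slc6a8 and Ckmt1, all lower), against 17.9% of all. The median difference of the 7 was 0.43 in BAT, where that of all genes and probes was 0.10. In WAT it was -0.76, where that of all was 0.24. Relative to that shift of all genes, the WAT differences were -4.19 for Ckmt1, -1.57 for Slc6a8, -1.31 for Gamt and -1.001 for Ckb. Quantile normalization left them at -4.16, -1.44, -1.18 and -0.81, none of them past the threshold.

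**Figure D3:**
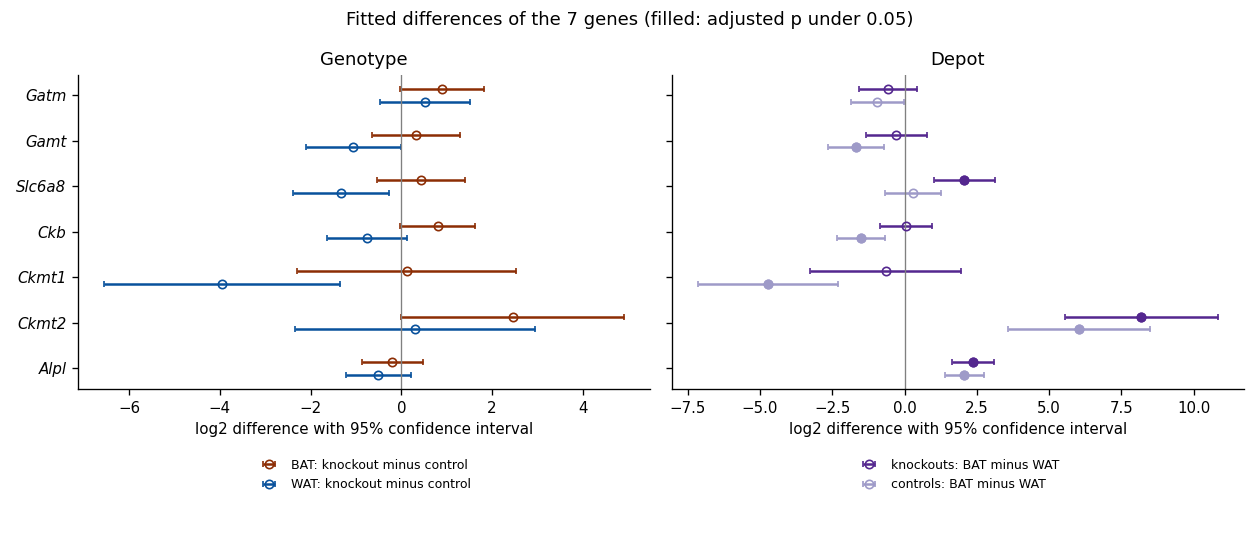
Fitted log2 differences with 95% confidence intervals (horizontal axes) for each gene (vertical axis), knockout minus control on the left and BAT minus WAT on the right, filled where the adjusted p was under 0.05. No genotype difference is filled, and Alpl and Ckmt2 are filled in both depot comparisons.

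The WAT counts turned on 1 sample, WAT knockout 4. Adipocyte markers were at -2.30, -1.34 and 0.74 in WAT knockouts 1-2, 3 and 4, and at 0.21, 0.10, -0.29 and -0.50 in WAT controls. WAT knockout 4 had the highest level of the WAT samples and the other knockouts the lowest. All 14 measured adipocyte markers had a lower mean in WAT knockouts, 0 passed the test, and their log2 summed signal was between 9.41 and 11.64 in knockouts and between 10.59 and 11.18 in controls. B cell markers ran the other way, at 5.09, 4.79 and -1.29 in WAT knockouts and at 0.16, -0.47, 3.71 and 3.04 in WAT controls. T and NK cell markers were at 3.70, 3.51 and -0.66 in WAT knockouts and at -0.30, -0.72, 2.48 and 1.93 in WAT controls. All 10 B cell and all 11 T and NK cell markers had a higher mean in WAT knockouts, and 0 of them passed the test.

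Without WAT knockout 4, only WAT knockouts 1-2 and 3 were left in that group. In that fit 36.8% of all genes and probes passed, and 4 of the 7 genes passed as lower in WAT knockouts. They were Gamt (-1.85, adjusted p = 0.00132, limma), Slc6a8 (-1.90, adjusted p = 0.00741, limma), Ckb (-1.23, adjusted p = 0.0276, limma) and Ckmt1 (-4.27, adjusted p = 0.0330, limma). Over all alternatives the adjusted p of these genes ranged up to 0.884, 0.864, 0.899 and 0.752, in the same order, and only this alternative took them past the threshold. The Slc6a8 and Ckb differences also depended on WAT controls 1 and 4, the samples highest in intestinal markers. Without these controls the WAT knockout difference was -0.59 for Slc6a8 and -0.34 for Ckb, against -1.33 and -0.76 with all samples. That of Gamt changed little. The parts of the adipocyte, lymphocyte and intestinal content in the values of these genes were not tested.

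**Figure D4:**
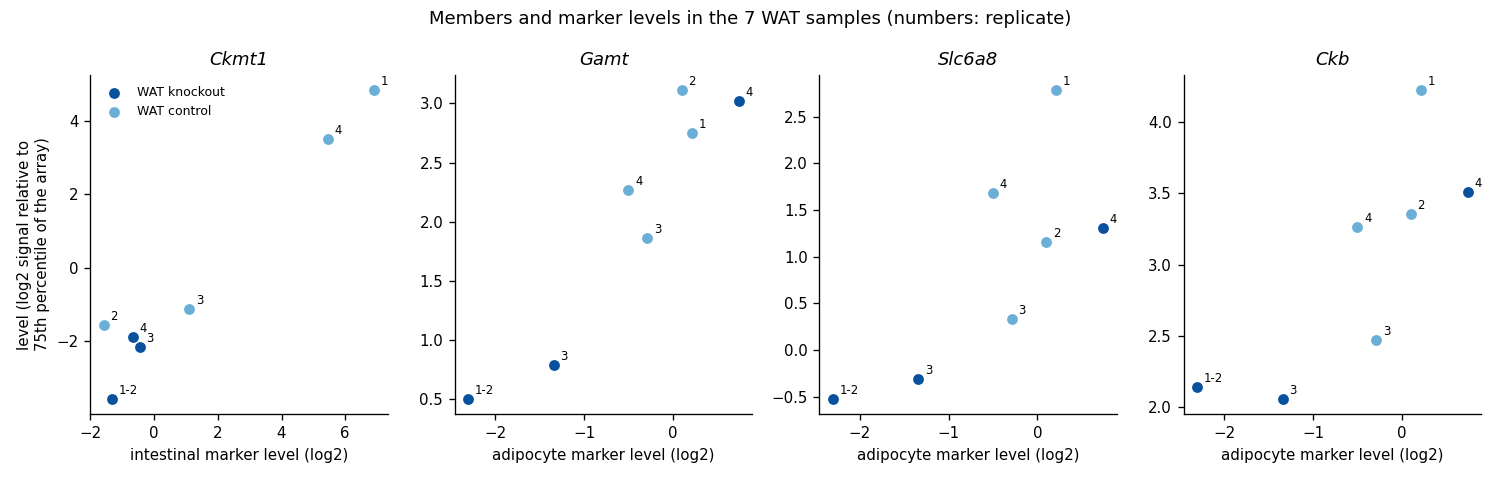
Level of Ckmt1 against intestinal markers, and of Gamt, Slc6a8 and Ckb against adipocyte markers, in the 7 WAT samples (log2 levels on both axes, replicate number beside each point). WAT controls 1 and 4 are high in Ckmt1 and intestinal markers, and WAT knockouts 1-2 and 3 are low in adipocyte markers and in the other genes.

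The genotype differences of the depots were set against each other with the interaction term, BAT minus WAT. It was 1.56 ± 0.56 for Ckb (adjusted p = 0.408, limma), 1.76 ± 0.67 for Slc6a8 (adjusted p = 0.417, limma) and 1.38 ± 0.67 for Gamt (adjusted p = 0.493, limma). For Ckmt1 it was 4.07 ± 1.65 (adjusted p = 0.436, limma). None of the 7 passed (0.00398% of all did), while 3 of 7 (Ckb, Slc6a8 and Ckmt1) had an unadjusted p under 0.05, against 10.4% of all. Without WAT knockout 4, with only WAT knockouts 1-2 and 3 left in that group, the interaction passed for 16.2% of all genes and probes. Among the 7 genes it passed for Gamt (2.17, adjusted p = 0.00542, limma), Slc6a8 (2.34, adjusted p = 0.0202, limma) and Ckb (2.02, adjusted p = 0.0191, limma). The highest adjusted p over all alternatives was 0.994 for Gamt, 0.955 for Slc6a8 and 0.952 for Ckb.

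More of the genes passed between depots than between genotypes. Among knockouts, 3 of 7 genes were higher in BAT (16.7% of all genes and probes were) and 0 of 7 lower (13.9%). Among controls, 2 of 7 were higher in BAT (19.1%) and 3 of 7 lower (14.3%). Ckmt2 is among the higher genes in both counts. Alpl was higher in BAT in both, 5.20-fold in knockouts (2.38 ± 0.34, adjusted p = 0.000189, limma) and 4.20-fold in controls (2.07 ± 0.31, adjusted p = 0.000197, limma). For Alpl, BAT lay above WAT without overlap in both, which held for 14.8% of all genes and probes among knockouts and 24.8% among controls.

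Ckmt2 was higher in BAT, but its probe passed the filter on dim probes through the BAT groups alone, where it is high, so its place among the genes that passed is no support for a depot difference. The probe was well above background on all 4 arrays of each BAT group, on 2 of 4 WAT knockout arrays and on 1 of 4 WAT control arrays. Its WAT levels were -6.19, -3.46 and -5.65 in knockouts and -3.24, -6.18, -5.99 and -6.23 in controls. A more cautious estimate counted each WAT array at no less than the lowest signal well above background on it. Signals not well above background can lie above that floor, as Ckm did in WAT control 3 (-5.42). The estimate is thus not a strict bound. By this estimate Ckmt2 was 198-fold higher in BAT among knockouts and 49.7-fold higher among controls. The adjusted p-values, 0.000299 and 0.00109 (limma), are those of the fit without the floor. The Ckm probe was well above background on all 4 arrays of each BAT group, on 1 of 4 WAT knockout arrays and on 3 of 4 WAT control arrays. By the same estimate the mean of Ckm was 179-fold higher in BAT among knockouts (adjusted p of the fit without the floor 0.000231, limma). Among controls Ckm was higher in BAT by 4.33 ± 1.04 (adjusted p = 0.00551, limma). Of 30 muscle markers, 26 passed as higher in BAT and 0 as lower among knockouts, where 16.7% of all genes and probes passed as higher, and 22 as higher and 1 as lower among controls, where 19.1% passed as higher. With the muscle covariate the depot difference of Ckmt2 was 1.43 in knockouts (adjusted p = 0.598, limma) and 1.35 in controls (adjusted p = 0.362, limma). The muscle marker level was between -1.25 and 4.57 in BAT and between -2.72 and -1.85 in WAT. The covariate thus separates the depots, and this fit cannot tell muscle transcripts and depot apart. The range of adjusted p over all alternatives began at 5.63e-05 in knockouts and 0.000155 in controls. BAT control 4, the BAT sample with the fewest muscle transcripts, had a Ckmt2 level of -2.82, against between -6.23 and -3.24 in WAT controls.

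Slc6a8 was 4.17-fold higher in BAT among knockouts (2.06 ± 0.49, adjusted p = 0.00645, limma), and its difference among controls was 0.30 ± 0.45 (adjusted p = 0.671, limma). The interaction given above is the test of whether these depot differences differ, and it did not pass. WAT controls 1 and 4 had the highest Slc6a8 levels of the WAT samples, 2.78 and 1.68. Without these controls the Slc6a8 difference among controls was 1.04 and the interaction 1.02. The difference among controls passed in 0 of 26 alternatives. The 3 genes lower in BAT among controls were Gamt, Ckb and Ckmt1. Gamt was 3.18-fold lower (-1.67 ± 0.45, adjusted p = 0.0113, limma), Ckb 2.86-fold lower (-1.52 ± 0.38, adjusted p = 0.00768, limma) and Ckmt1 26.5-fold lower (-4.73 ± 1.12, adjusted p = 0.00517, limma). Their differences among knockouts were -0.29, 0.04 and -0.66, none past the threshold. The second Ckb probe differed by -1.62 between BAT controls and WAT controls, without overlap, which held in this direction for 18.5% of all genes and probes.

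Without WAT controls 1 and 4, where 21% of all genes and probes passed, the difference among controls was -1.97 for Ckmt1 (adjusted p = 0.0087, limma). It was -1.66 for Gamt (adjusted p = 0.0671, limma) and -1.10 for Ckb (adjusted p = 0.0916, limma), which no longer passed. The range of adjusted p over all alternatives was 0.00107 to 0.0983 for Ckmt1, 0.000193 to 0.177 for Gamt and 0.00125 to 0.223 for Ckb. Gatm was lower in BAT controls, likewise without overlap, with a difference of -0.95 ± 0.43 (adjusted p = 0.107, limma). Its difference among knockouts was -0.57 ± 0.46 (adjusted p = 0.402, limma).

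Each slide held 1 array of every group, so each difference could be taken within a slide. The arrays of WAT knockouts 1 and 2, counted as 1 sample above, were on slides 4 and 2, so the 4 slides hold only 3 distinct WAT knockout samples. For the depot differences that passed, the sign was the same on all 4 slides. The groups of these comparisons did not overlap, so the sign had to be the same and adds no support. The same holds below for Ckb and Slc6a8 in BAT knockouts and for Ckmt1 in WAT knockouts. Among knockouts, Slc6a8 ran between 0.94 and 2.93, Alpl between 1.35 and 3.15 and Ckmt2 between 4.81 and 10.29. Among controls, Alpl ran between 1.57 and 2.47, Ckmt2 between 3.42 and 7.77, Gamt between -2.54 and -0.91, Ckb between -2.55 and -0.56 and Ckmt1 between -8.48 and -1.88. The knockout differences in BAT ran between 0.22 and 1.56 for Ckb, 0.30 and 0.65 for Slc6a8, 0.21 and 1.46 for Gatm and -0.88 and 4.80 for Ckmt2. Those in WAT ran between -7.14 and -0.77 for Ckmt1. The WAT knockout differences of Gamt, Slc6a8 and Ckb were below 0 on 3 slides, which hold 2 distinct WAT knockout samples, and above 0, at 1.15, 0.98 and 1.04, on slide 3, which held WAT knockout 4.

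The wider pathway was read from a list of 42 genes that supply precursors for creatine, handle phosphate or exchange adenine nucleotides, of which 39 were measured. None passed in the knockout comparisons, with 17 higher and 22 lower means in BAT and 13 higher and 26 lower in WAT. Between depots among knockouts, 15 of 39 passed as higher in BAT, against 16.7% of all genes and probes, and 7 as lower, against 13.9%. Among controls 19 passed as higher, against 19.1% of all, and 8 as lower, against 14.3%. The median depot difference of the list was 0.53 among knockouts and 0.86 among controls, where that of all genes and probes was -0.09 and 0.11.

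The 3 pathway genes with the smallest adjusted p between depots were Ahcyl1, Ak1 and Phospho1 in knockouts and Ahcyl1, Phospho1 and Phospho2 in controls. Ahcyl1, a relative of the hydrolase that clears the by-product of methylation, was at 3.36, 3.92, 4.34 and 4.66 in BAT knockouts and at 0.73, 0.67 and 1.39 in WAT knockouts. It was at 4.46, 4.40, 4.55 and 4.72 in BAT controls and at 0.83, 1.29, 0.98 and 1.12 in WAT controls. BAT lay above WAT without overlap in both, by 3.14 ± 0.28 in knockouts (adjusted p = 4.96e-06, limma) and 3.47 ± 0.26 in controls (adjusted p = 8.32e-07, limma).

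Phospho1, a phosphatase known for phosphocholine and phosphoethanolamine, was higher in BAT by 2.69 ± 0.34 in knockouts (adjusted p = 7.70e-05, limma) and by 3.35 ± 0.31 in controls (adjusted p = 4.25e-06, limma). Its probe was well above background on 3 of 4 arrays in each WAT group. Ak1, the cytosolic adenylate kinase that is abundant in muscle, was at 3.26, 4.16, 3.70 and 2.86 in BAT knockouts and at -1.10, -0.78 and 0.66 in WAT knockouts. It was highest in BAT knockouts 2 and 3, and its depot difference was 3.90 ± 0.39 in knockouts (adjusted p = 1.27e-05, limma) and 2.66 ± 0.36 in controls (adjusted p = 9.36e-05, limma). Phospho2, a relative of Phospho1, was higher in BAT by 0.77 ± 0.15 in knockouts (adjusted p = 0.00173, limma) and by 1.07 ± 0.14 in controls (adjusted p = 5.08e-05, limma).

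**Figure D5:**
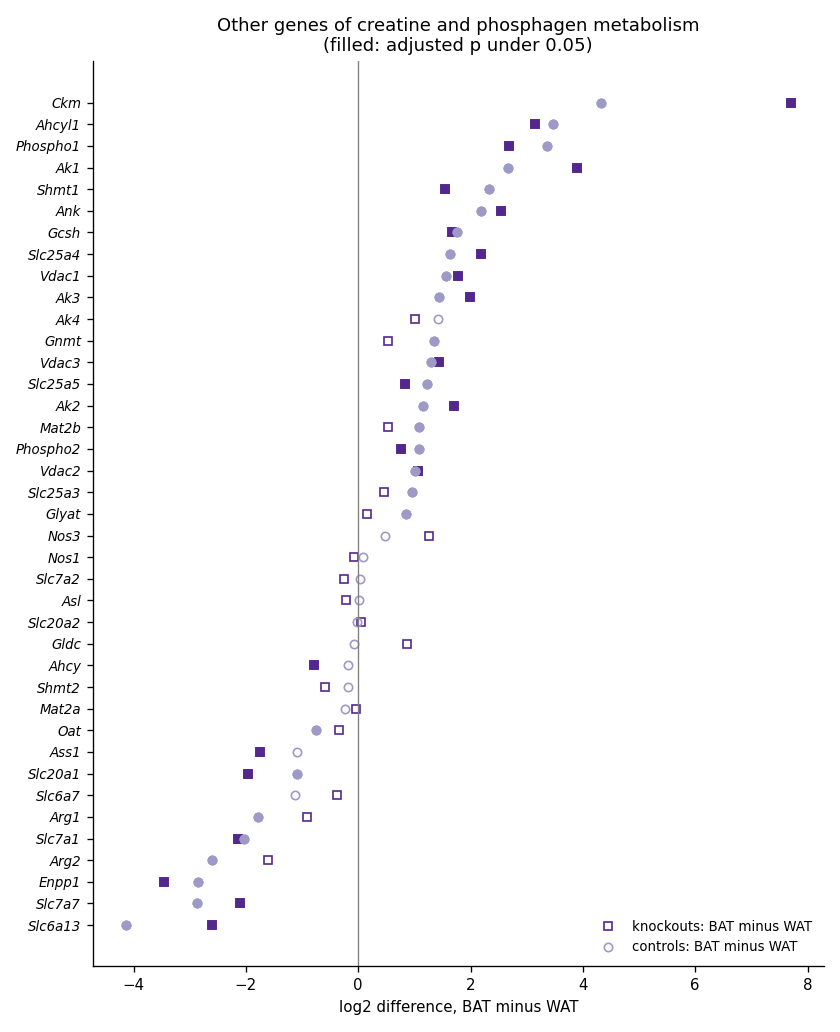
BAT minus WAT difference (log2, horizontal axis) of 39 other genes of creatine and phosphagen metabolism (vertical axis, ordered by the difference in controls), in knockouts (squares) and controls (circles), filled where the adjusted p was under 0.05. Ckm and Ahcyl1 have the largest differences above 0 in controls and Slc6a13 the largest below 0.

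The likeness of each gene's course to that of 16651 other named genes was described by Pearson's r over the 15 samples, which share depot, genotype and tissue content, so that r carries no test. Ckmt2 was most like Myoz1 (0.992), Fitm1 (0.990) and Myot (0.989), and Myoz1 is one of the muscle markers. Ckmt1 was most like Smim22 (0.993), Klf5 (0.983) and Guca2b (0.981), and Guca2b is one of the intestinal markers. Gamt was most like Npdc1 (0.990), Fbln2 (0.987) and Smo (0.987), and Ckb was most like Erbb2 (0.982), Arhgef25 (0.980) and Arhgef5 (0.973). The genes nearest to Alpl were Cxcl14 (0.981), Hpdl (0.980) and Tmem37 (0.980), those nearest to Slc6a8 were Myo6 (0.966), Khk (0.965) and Klc1 (0.962), and those nearest to Gatm were Dnah6 (0.904), Gas2l3 (0.894) and Padi3 (0.890). Among the 7 genes themselves, the highest r were 0.870 between Ckb and Gamt, 0.834 between Alpl and Ckmt2, 0.746 between Alpl and Slc6a8 and 0.743 between Ckb and Ckmt1.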

How the data were processed

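RNA of BAT and WAT from female mice was labelled with Cy3 and hybridised to 16 arrays, 1 array of each of the 4 groups on each of 4 slides, with each group at its own slide position, so position and group cannot be told apart. Images were quantified by the authors in Agilent Feature Extraction, version 12.0.0.7, per the file headers. The processed signal they deposited is an intensity, corrected for background within the array and not scaled between arrays. The deposited spot flags and well-above-background marks are of another kind, 0 or 1 per spot. Values in the deposited table are also intensity values: each matches the average of the probe's processed spots, with a largest relative difference of 5.00e-06.

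From these files, flagged spots (non-uniform or population outlier) were dropped, a probe's spots were averaged, and each array was scaled to its 75th percentile before log2 was taken. Accessions were matched to RefSeq on GRCm38.p6, which named 28223 of 41174 probes. A probe was kept when well above background on at least 3 arrays of at least 1 group, and a gene's probe of highest mean level stood for it. In R 4.3.3, with files read through data.table (version 1.17.8), the lmFit and eBayes functions of limma 3.58.1 fitted 1 mean per group over 15 samples with 11 residual and 2.65 prior degrees of freedom, two-sided, at an adjusted p of 0.05 over 16677 named genes and 8430 unnamed probes. The procedure was tested on simulated data. Other steps used Python 3.11.15, numpy 2.4.6, pandas 2.3.3, scipy 1.17.1 and matplotlib 3.10.9.

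A marker list's level was computed by centring each measured gene on its 15-sample mean (log2) and taking the median over the genes within each sample. Every probe of the 7 genes is reported, with Ckm, Nr3c1, up to 3 pathway genes per comparison by smallest adjusted p, the 3 most similar genes of each, and the first 3 genes of a marker list. The 7 genes, the lists and the tests were chosen with earlier results of these data known. Alternatives were quantile normalization, normexp background correction (offset 50, on the median signal and median background, since no mean signal column was used here), no filter on dim probes, the mean of a gene's probes, slide or replicate number as a block, WAT knockouts 1 and 2 as separate samples, only the groups compared, the muscle marker level as a covariate, the value table, and each replicate left out. Lists for pancreatic acinar cells, neurons and glia, and bone and cartilage were measured as well: 0 of their 14, 12 and 7 measured genes passed in either knockout comparison.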

Additional observations from a re-analysis of the deposited data

Results flagged for a closer look

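Among 27 groups of 4 samples tested for a single sample far from the others, 3 stood out, where chance alone gives about 1 in 20. Ckm was at -2.57 in BAT control 4, the BAT sample with the lowest muscle marker level (-1.25), with a gap of 0.862 of the group's range. Ckmt2 was at -3.24 in WAT control 1, the only WAT control in which its probe was well above background, with a gap of 0.917 of the range. Gatm was at -1.51 in WAT control 2, above the other WAT controls, with a gap of 0.883 of the range.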

How the results depend on the processing

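Of 917 differences of the 7 genes under alternatives, 878 kept their direction and their side of the threshold, 9 lost the threshold, 8 gained it and 22 changed direction, none of the last past the threshold. The number of the 7 genes that passed between BAT controls and WAT controls was 5, where 33.4% of all genes and probes passed. It was 1 (Alpl) once muscle marker level was a covariate and 3 without WAT controls 1 and 4 (21% of all). Between BAT knockouts and WAT knockouts it was 3 (30.6% of all), but 0 with the muscle covariate. Over the alternatives, the number of all genes and probes that passed fell as low as 2697 in controls and 505 in knockouts. The share of all under the muscle covariate is not given here, so these drops cannot be read as particular to the 7 genes. That covariate itself separates the depots. With it, the difference among controls was -1.71 for Gamt, -1.31 for Ckb and -5.16 for Ckmt1 (adjusted p 0.177, 0.223 and 0.0983, limma), and among knockouts 1.69 for Slc6a8 and 2.48 for Alpl (adjusted p 0.452 and 0.0878, limma); the cause was not tested. With each replicate left out, the WAT knockout count ran from 0 to 4 and the interaction count from 0 to 3, in both cases highest without WAT knockout 4. Fitted with only the groups compared, Gatm passed as lower in BAT controls (-0.95, adjusted p = 0.0165, limma).

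Changes of direction were all among differences that did not pass. With quantile normalization, Ckmt1 in BAT knockouts was -0.0026, Ckmt2 in WAT knockouts -0.081 and Ckb between depots in knockouts -0.23. The last was -0.039 with the mean of the probes. With the muscle covariate, Ckmt1 in BAT knockouts was -0.10, Ckmt2 in WAT knockouts -0.068, and Gatm between depots 0.80 in knockouts and 0.0067 in controls. Without BAT knockouts 1 and 2, Ckmt1 in BAT knockouts was -0.17, the Alpl interaction -0.063 and Ckb between depots in knockouts -0.36. With each replicate left out, Ckb between depots in knockouts ran from -0.21 to 0.51, Gamt between depots in knockouts from -0.75 to 0.50, Slc6a8 between depots in controls from -0.089 to 0.73, Ckmt2 in WAT knockouts from -0.51 to 1.03, the Gatm interaction from -0.13 to 0.67, Ckmt1 in BAT knockouts from -0.091 to 0.33, and r of Ckmt1 with muscle markers in BAT from -0.19 to 0.021.

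Replicate numbers are shared by the groups. Between knockouts and controls, the deviations of same-numbered samples correlated between -0.04 and 0.18 in BAT and between -0.47 and 0.29 in WAT. These values gave no sign that the numbers pair knockouts with controls. Whether BAT and WAT samples of the same number and genotype are paired was not tested, and the depot tests treat them as independent. With the replicate block, Ckb between depots in knockouts was -0.016 (adjusted p = 0.980, limma), and the counts of the 7 genes stayed at 0, 0, 0, 5 and 3. Over all genes and probes, the number past the threshold was 4 in BAT knockouts (0 to 84 over the alternatives), 15 in WAT knockouts (0 to 9235), 1 for the interaction (0 to 4055), 7683 between depots in knockouts (505 to 11456) and 8381 in controls (2697 to 10774). The alternatives without WAT controls 1 and 4, without BAT knockouts 1 and 2, and with BAT samples only and the muscle covariate were chosen after seeing the data. Dim signals limit Ckmt2 and Ckm in WAT, where some arrays were not well above background.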
